A study of Mus musculus with 6 samples.

Results

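The mitochondrial ribosomal proteins are the nuclear-encoded proteins of the ribosome inside mitochondria. They were taken as all rows of the deposited gene table whose symbol is Mrpl or Mrps followed by a number and at most a letter from a to c. This rule found 78 genes of 26835 in the table, 49 named Mrpl for the large subunit and 29 named Mrps for the small subunit, and no symbol had more than 1 row. The libraries are bulk RNA-seq of hearts of wild-type C57BL/6 mice of 7 to 8 weeks and about 20 g, with 2 libraries in each of 3 groups. CFZ_EA mice received carfilzomib, a proteasome inhibitor with known cardiac side effects, at 8 mg/kg by intraperitoneal injection, together with electroacupuncture at the acupoint PC6. CFZ mice received the same dose of carfilzomib without electroacupuncture. Control mice received 10% DMSO by the same route. Days 0, 2, 4 and 6 are listed for all 6 libraries alike, without saying what happened on each. Whether the 2 libraries of a group are separate animals is not in the labels. The p-values therefore measure the spread between these libraries only, and that spread may be technical.

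The mitochondrial ribosome translates the mRNAs of the mitochondrial genome, which encode core subunits of the respiratory chain and of ATP synthase. Its ribosomal RNAs are made in the mitochondrion, whereas its proteins are encoded in the nucleus, made in the cytosol and imported. The small subunit binds the mRNA and decodes it, and the large subunit forms peptide bonds and is anchored to the inner membrane. Part of the proteins descend from bacterial ribosomal proteins and part were added during the evolution of mitochondria. In the heart, a tissue with a high demand for oxidative phosphorylation, inherited defects of several of these proteins in humans cause cardiomyopathy, among them MRPL3, MRPL44 and MRPS22.

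The genes share a product but are spread over 17 chromosomes, with 11 genes on chromosome 11 as the largest number on any. The sequence before the start site was examined as a feature that some of them could share. RefSeq promoter entries (build GRCm38.p6) were matched for 69 of the 78 genes, and the 250 bases before each start were searched on both strands. The motif of nuclear respiratory factor 1 (NRF1), which reads GCGCA, any base and GCGC, was present in 10 of 69 (14.5%), against 9.78% of 7486 tested genes and 4.23% of all 27025 genes with an entry. It was found before 9 of 43 large-subunit genes and before 1 of 26 small-subunit genes, which was Mrps21. The motif CCGGAAG of ETS factors, to which GABP (nuclear respiratory factor 2) belongs, was present in 18 of 69 (26.1%), against 16.0% of tested genes and 7.83% of all genes. The YY1 motif AAGATGGC was present in 4 of 69 (5.80%), against 2.51% of tested genes, and the ERRA motif TCAAGGTCA in 0 of 69, against 0.347% of tested genes. The ZNF143 motif, which reads ACTACA, any base and TTCCC and was added after the sequences had been seen, was present in 3 of 69 (4.35%: Mrpl34, Mrpl50 and Mrps22), against 2.00% of tested genes. A gene was counted once for each motif, no matter how many matches it had or whether matches overlapped. Promoters of 5 genes are shown, each as the run of up to 130 bases before the start outside annotated exons, with motifs in capitals. Mrpl12 (chr11:120484507-120484612, plus strand) and Mrpl34 (chr8:71464796-71464925, plus strand) have the highest FPKM of the large-subunit genes. Mrpl17 (chr7:105811100-105811217, minus strand) and Mrps22 (chr9:98601680-98601809, minus strand) are genes whose levels are described below. Mrpl45 (chr11:97315586-97315715, plus strand) has 2 NRF1 matches. Capitals mark NRF1 in the first 3 sequences, GABP then ZNF143 in Mrpl34, and ZNF143 then GABP in Mrps22.
Mrpl12: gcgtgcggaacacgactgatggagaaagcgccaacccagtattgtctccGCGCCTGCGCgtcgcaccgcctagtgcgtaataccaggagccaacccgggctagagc
Mrpl17: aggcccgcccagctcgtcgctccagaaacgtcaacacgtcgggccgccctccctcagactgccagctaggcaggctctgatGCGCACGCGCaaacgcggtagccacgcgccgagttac
Mrpl45: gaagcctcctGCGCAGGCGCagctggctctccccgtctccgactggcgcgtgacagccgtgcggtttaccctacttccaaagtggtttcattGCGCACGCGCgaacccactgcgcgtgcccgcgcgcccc
Mrpl34: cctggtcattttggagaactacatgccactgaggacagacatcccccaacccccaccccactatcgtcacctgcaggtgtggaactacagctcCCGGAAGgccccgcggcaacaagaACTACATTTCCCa
Mrps22: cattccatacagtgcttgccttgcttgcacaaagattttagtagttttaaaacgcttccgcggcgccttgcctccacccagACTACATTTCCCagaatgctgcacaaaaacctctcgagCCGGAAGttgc
The NRF1 match began 81 bases before the start in Mrpl12, 49 in Mrpl17, and 120 and 38 in Mrpl45. The GABP match began 37 bases before the start in Mrpl34 and 11 in Mrps22. These matches are letters in a window, and no binding was measured in these hearts. The transcript of NRF1 itself, Nrf1, was low, at 0.601 and 0.470 FPKM in CFZ_EA hearts, 0.781 and 0.469 FPKM in CFZ hearts and 0.562 and 1.25 FPKM in Control hearts. By definition, FPKM is the number of sequenced fragments scaled by transcript length and by the mapped fragments of the library. Which length was used for genes with several transcripts is not given in the sources used here.

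All 78 genes are annotated as protein coding in GENCODE M21. Another protein-coding gene starts on the opposite strand within 1000 bases upstream of 18 of the 78 (23.1%), compared with 967 of 9272 tested protein-coding genes (10.4%). Among these pairs, Mrpl32 starts 75 bases from Psma2, which encodes a subunit of the proteasome, the target of carfilzomib. Mrps12 starts 172 bases from Sars2, the mitochondrial seryl-tRNA synthetase, and Mrpl49 starts 59 bases from Fau, which encodes a cytosolic ribosomal protein fused to a ubiquitin-like domain. Mrpl46 and Mrps11, a large-subunit and a small-subunit gene, overlap each other on opposite strands. In all, 23 of the 78 overlap a coding gene on the opposite strand, and 4 (Mrpl53, Mrps24, Mrps34 and Mrps6) overlap a coding gene on their own strand. The library kit marks the strand, but whether the counting used it is not given in the sources used here, so the values of these genes are uncertain. The table also lists 4 pseudogenes, Mrps36-ps1, Mrps36-ps2, Mrpl23-ps1 and Mrpl48-ps, at mean levels of 1.16, 1.79, 2.10 and 2.84 FPKM. Reads of Mrps36, Mrpl23 and Mrpl48 could be split with them.

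The libraries held 50013990 to 75742448 counts. The lowest count of any of the 78 genes lay between 604 and 1046 over the 6 libraries, so no gene was near the limit of detection. The label heart was checked against 6 cardiomyocyte markers. Their summed level was 20705 and 18835.5 FPKM in CFZ_EA hearts, 20549 and 20993 FPKM in CFZ hearts and 18799 and 18100 FPKM in Control hearts. It was highest in CFZ replicate 2 and lowest in Control replicate 2. Libraries also differed in other cell types. Control replicate 2 had a summed fibroblast marker level of 681 FPKM (6 genes), against 109 to 167 FPKM in the other 5 libraries, and a macrophage marker level of 696 FPKM (5 genes), against 174 to 239 FPKM. Smooth muscle markers (4 genes) were 241 FPKM there and 78.4 to 123 FPKM elsewhere. Epicardial markers (5 genes) were 4.34 and 10.9 FPKM in CFZ_EA hearts, 3.84 and 3.53 FPKM in CFZ hearts and 18.0 and 42.8 FPKM in Control hearts. Erythroid markers (3 genes) were 1502 and 2140 FPKM in CFZ_EA hearts, 1606 and 2009 FPKM in CFZ hearts and 3004 and 3455 FPKM in Control hearts. For both sets the 2 Control libraries lay above all libraries of carfilzomib-treated hearts. The mitochondrially encoded share of counts was 14.8% in Control replicate 2 and 17.9% to 21.3% in the others. Atrial markers (6 genes) were 972 and 5664 FPKM in CFZ_EA hearts, 341 and 209 FPKM in CFZ hearts and 2833 and 1617 FPKM in Control hearts. In bulk tissue, fewer cells of a type and less RNA per cell cannot be told apart. The part of these differences in the results below was not tested, other than by leaving libraries out.

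By FPKM the genes covered a 66.6-fold range, with mean levels over the 6 libraries from 2.58 FPKM for Mrps10 to 172 FPKM for Mrps21. Their median was 22.6 FPKM (quartiles 9.57 and 34.9), which is at percentile 85.4 of the 10329 tested genes. There were 12 genes at or above 50 FPKM and 21 below 10 FPKM. The 4 highest, Mrps21, Mrpl12, Mrpl34 and Mrpl18, held 22.3% of the summed FPKM. By counts the end genes lay closer: in CFZ_EA replicate 1, Mrps10 had 1534 counts and Mrps21 had 8882. Comparisons of level between genes depend on the length used for FPKM. The range, the ranks, this share, and the subunit levels and ratios below therefore hold for FPKM only. The order of the 78 levels was close to the same in every library, with Spearman rho between pairs of libraries from 0.987 to 0.993 across genes, which are not independent replicates.

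**Figure D1:**
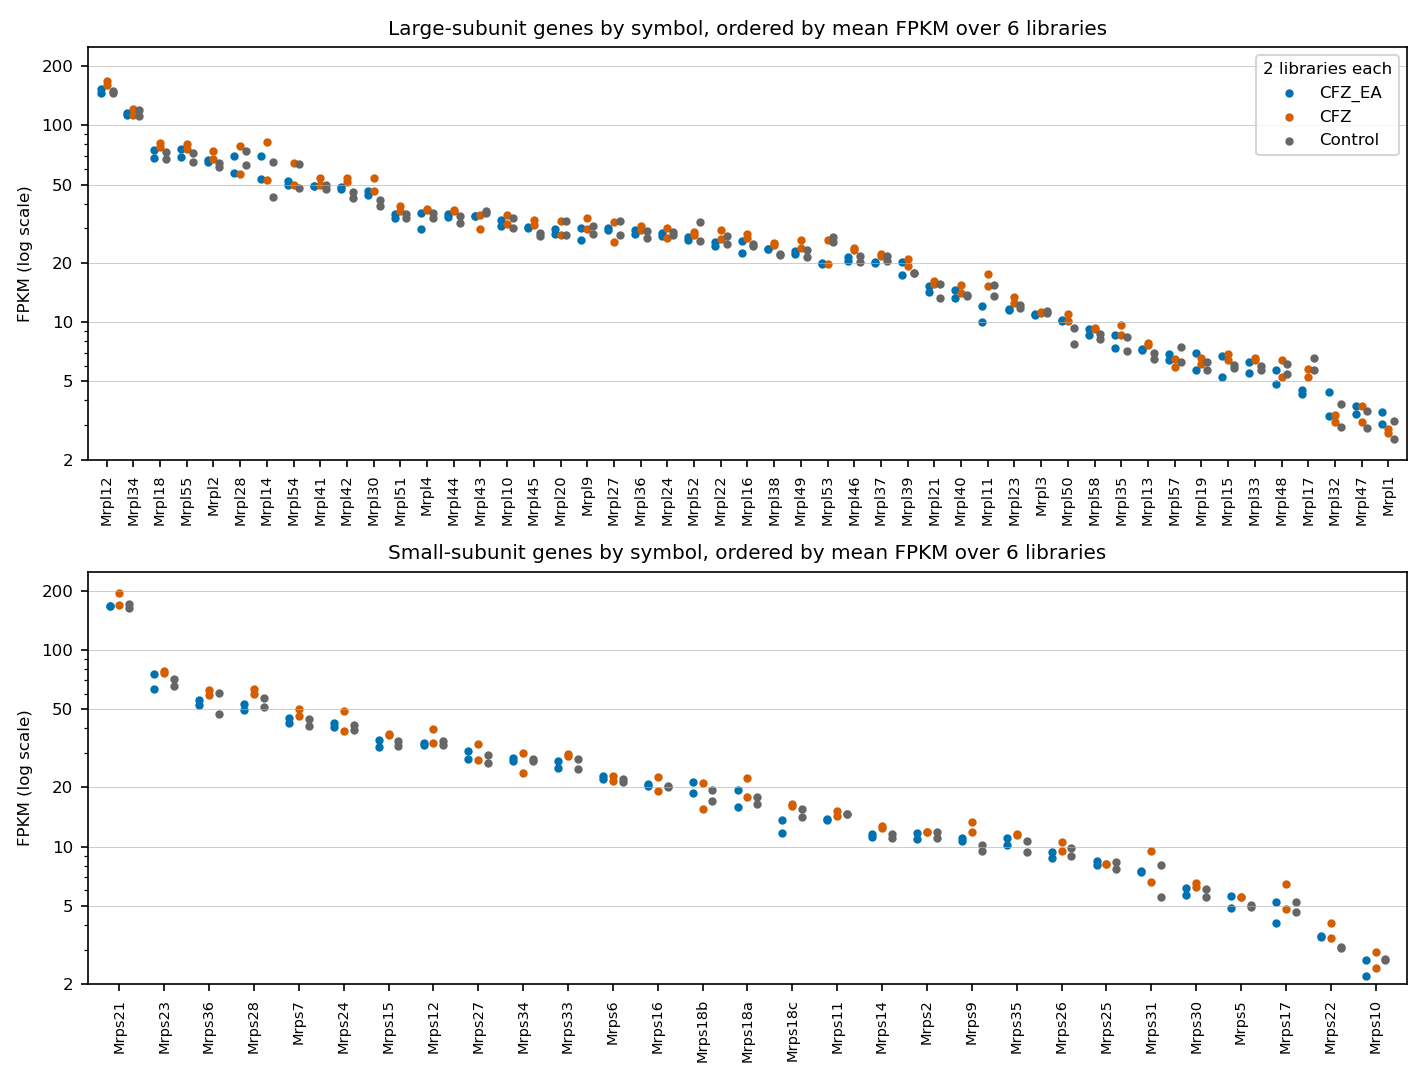
FPKM (log scale) of each of the 49 large-subunit genes (top) and 29 small-subunit genes (bottom), ordered by mean, with a point for each library and colours for CFZ_EA, CFZ and Control (2 libraries each). Levels run from about 2.58 FPKM (Mrps10) to 172 FPKM (Mrps21) while the 6 points of a gene mostly lie close together.

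Mrps21, a small-subunit protein related to bacterial S21, had 168 and 167 FPKM in CFZ_EA hearts, 168 and 194 FPKM in CFZ hearts and 171 and 164 FPKM in Control hearts. CFZ replicate 2 was the high library and the others lay within a narrow band. Mrpl12, which belongs to the stalk of the large subunit and also binds the mitochondrial RNA polymerase, had 147 and 154 FPKM in CFZ_EA hearts, 160 and 167 FPKM in CFZ hearts and 146 and 150 FPKM in Control hearts. Both CFZ values lay above the 4 others. Mrpl34, the counterpart of bacterial L34, had 113 and 115 FPKM in CFZ_EA hearts, 112 and 121 FPKM in CFZ hearts and 119 and 111 FPKM in Control hearts, and its 3 groups overlapped. At the low end, Mrps10 had 2.65 and 2.19 FPKM in CFZ_EA hearts, 2.91 and 2.41 FPKM in CFZ hearts and 2.69 and 2.65 FPKM in Control hearts. Mrpl1, a protein of the L1 stalk where tRNAs leave the ribosome, had 3.04 and 3.49 FPKM in CFZ_EA hearts, 2.72 and 2.87 FPKM in CFZ hearts and 3.14 and 2.55 FPKM in Control hearts.

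Large-subunit genes had a median level of 25.4 FPKM and small-subunit genes 18.3 FPKM. Summed over each subunit, the large subunit had 1469 and 1489 FPKM in CFZ_EA hearts, 1542 and 1638 FPKM in CFZ hearts and 1479 and 1471 FPKM in Control hearts. The small subunit had 794 and 758 FPKM in CFZ_EA hearts, 812 and 877 FPKM in CFZ hearts and 780 and 764 FPKM in Control hearts. Both sums were highest in CFZ replicate 2, and both CFZ sums lay above the other 4 for each subunit. The ratio of the large to the small sum was 1.91 ± 0.0801 in CFZ_EA hearts, 1.88 ± 0.0218 in CFZ hearts and 1.91 ± 0.0206 in Control hearts (SD, n = 2 each). The 3 groups overlapped in this ratio, which ran from 1.85 to 1.96 over all 6 libraries. With 2 libraries against 2, an exact permutation test cannot give a two-sided p below 0.333, so none was run on the ratio.

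The symbol does not always give the place of the protein in the ribosome. In later structures of mammalian mitochondrial ribosomes, the proteins of Mrps30 and Mrps18a lie in the large subunit, and the protein of Mrps36 was assigned to the 2-oxoglutarate dehydrogenase complex instead. With Mrps30 and Mrps18a counted as large and Mrps36 left out, the ratio was 2.15 in CFZ_EA hearts, 2.13 in CFZ hearts and 2.16 in Control hearts. Mrps36 had 52.7 and 55.9 FPKM in CFZ_EA hearts, 59.0 and 62.7 FPKM in CFZ hearts and 60.4 and 47.5 FPKM in Control hearts, with the widest spread between the 2 Control libraries. Mrps30 had 5.71 and 6.16 FPKM in CFZ_EA hearts, 6.25 and 6.51 FPKM in CFZ hearts and 6.12 and 5.58 FPKM in Control hearts. For 47 genes with a counterpart in bacterial ribosomes the median level was 20.5 FPKM, and for the 31 without it was 23.3 FPKM.

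In CFZ against Control, no mitochondrial ribosomal protein gene passed the test, but most were slightly higher in CFZ hearts. The fitted log2 fold change was above 0 for 72 of 78 genes, compared with 49.5% of the 10329 tested genes, and below 0 for 6, compared with 50.5%. It was above 0 for 43 of 49 large-subunit genes and for 29 of 29 small-subunit genes. The median log2 fold change was 0.17 for the large subunit and 0.19 for the small subunit, against -0.0034 for all tested genes. The 29 of 29 did not hold in every fit. With CFZ replicate 2 dropped, 24 small-subunit and 37 large-subunit genes were above 0 (48.6% of tested genes). Dropping Control replicate 2 instead gave 23 and 39 (51.1%). Scaling all 6 libraries by their totals alone gave 25 and 38 (38.6%). Tested with edgeR (quasi-likelihood, p adjusted by Benjamini and Hochberg over all tested genes), 0 of the 78 had an adjusted p under 0.05, where 0.029% of all tested genes did. DESeq2 also called 0 of 78, where it called 1.34% of tested genes. At an unadjusted p under 0.05, Mrps9 and Mrpl30 (2 of 78) were higher (1.82% of tested genes) and 0 were lower (5.9%). On the scaled counts, both CFZ libraries lay above both Control libraries for 39 of 78 genes (18.4% of tested genes) and below them for 1 gene, Mrpl17 (18.7%). On the FPKM scale the counts were 37 above (12.5% of tested genes) and 1 below (20.8%), but the 1 below was Mrpl43, and the Mrpl17 groups overlapped.

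The 5 highest small-subunit changes were those of Mrps9, Mrps22, Mrps18a, Mrps31 and Mrps35. Mrps9, the counterpart of bacterial S9, had 11.8 and 13.4 FPKM in CFZ hearts and 10.1 and 9.49 FPKM in Control hearts. The groups did not overlap, and the log2 fold change was 0.42 ± 0.14 (SE; edgeR adjusted p = 0.608). Mrps22, a small-subunit protein without a bacterial counterpart, had 4.09 and 3.42 FPKM in CFZ hearts and 3.08 and 3.05 FPKM in Control hearts. The Control libraries were nearly equal and both CFZ libraries lay above them, with a log2 fold change of 0.34 ± 0.15 (SE; edgeR adjusted p = 0.651). Mrps35, also particular to mitochondrial ribosomes, had 11.6 and 11.5 FPKM in CFZ hearts and 10.6 and 9.35 FPKM in Control hearts, a log2 fold change of 0.26 ± 0.14 (SE). Mrps31 had 9.49 and 6.62 FPKM in CFZ hearts and 8.05 and 5.57 FPKM in Control hearts. Its groups overlapped, and its log2 fold change of 0.28 ± 0.25 (SE) became -0.02 without Control replicate 2.

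The 5 highest large-subunit changes were those of Mrpl30, Mrpl14, Mrpl50, Mrpl42 and Mrpl35. Mrpl30, the counterpart of bacterial L30, had 46.5 and 54.1 FPKM in CFZ hearts and 41.8 and 39.0 FPKM in Control hearts. The groups did not overlap, and the log2 fold change was 0.37 ± 0.15 (SE; edgeR adjusted p = 0.640). Mrpl42 had 51.7 and 54.1 FPKM in CFZ hearts and 45.9 and 42.5 FPKM in Control hearts, a log2 fold change of 0.31 ± 0.13 (SE; edgeR adjusted p = 0.647). Mrpl50 had 11.0 and 10.1 FPKM in CFZ hearts and 9.30 and 7.77 FPKM in Control hearts, a log2 fold change of 0.35 ± 0.17 (SE). For both genes the CFZ libraries lay above the Control libraries. Mrpl14, the counterpart of bacterial L14, had 52.5 and 82.0 FPKM in CFZ hearts and 65.3 and 43.0 FPKM in Control hearts, a log2 fold change of 0.37 ± 0.34 (SE). Its libraries of each group lay far apart, and the sign turned (-0.06) without CFZ replicate 2. Mrpl35 had 9.64 and 8.56 FPKM in CFZ hearts and 8.42 and 7.13 FPKM in Control hearts, a log2 fold change of 0.27 ± 0.16 (SE).

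**Figure D2:**
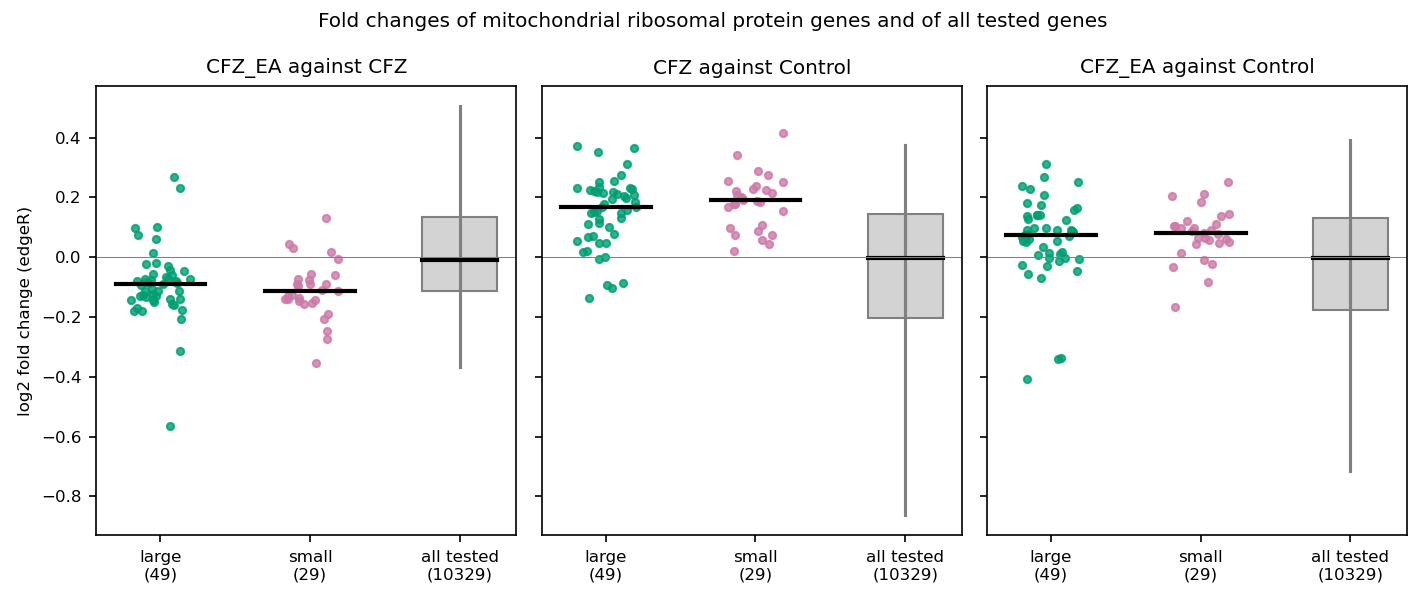
Fitted log2 fold change of each gene (points) of the large (49) and small (29) subunit in CFZ_EA against CFZ, CFZ against Control and CFZ_EA against Control, with black bars at the medians. The grey boxes give the median and quartiles of all 10329 tested genes, with whiskers from the 5th to the 95th percentile. In CFZ against Control the subunit medians are 0.17 and 0.19, in CFZ_EA against CFZ they are -0.09 and -0.11.

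In the edgeR fit, the 6 genes with a log2 fold change below 0 were all of the large subunit: Mrpl53, Mrpl43, Mrpl17, Mrpl57, Mrpl27 and Mrpl32. The values of Mrpl27 (-0.0061) and Mrpl32 (-0.0003) were almost 0. With limma on log2(FPKM + 1), 10 large-subunit and 3 small-subunit genes were below 0, where 39.8% of tested genes were above 0. That all were of the large subunit thus depended on the scale, and, from the counts given above, also on the libraries kept. Mrpl53 had 19.8 and 26.1 FPKM in CFZ hearts and 27.0 and 25.5 FPKM in Control hearts, a log2 fold change of -0.13 ± 0.20 (SE). Only CFZ replicate 1 was low. Mrpl17, the counterpart of bacterial L17, had 5.76 and 5.26 FPKM in CFZ hearts and 5.69 and 6.55 FPKM in Control hearts, a log2 fold change of -0.09 ± 0.11 (SE). Mrpl43, which overlaps the helicase gene Twnk on the opposite strand, had 29.7 and 34.97 FPKM in CFZ hearts and 35.6 and 36.8 FPKM in Control hearts, a log2 fold change of -0.10 ± 0.14 (SE). Mrpl57 had 5.92 and 6.52 FPKM in CFZ hearts and 6.29 and 7.51 FPKM in Control hearts, a log2 fold change of -0.09 ± 0.15 (SE). For each of these 4 genes the difference was smaller than its standard error.

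The values of the disease genes are given here, and no difference between these genes was tested. Mrpl44, a large-subunit protein with a ribonuclease fold, had 36.6 and 37.3 FPKM in CFZ hearts and 34.7 and 31.8 FPKM in Control hearts, a log2 fold change of 0.20 ± 0.13 (SE). Mrpl3, the counterpart of bacterial L3 near the peptidyl transferase centre, had 11.3 and 11.1 FPKM in CFZ hearts and 11.4 and 11.1 FPKM in Control hearts. Its log2 fold change was 0.05 ± 0.11 (SE). The Mrpl3 groups overlapped almost fully, while those of Mrpl44 and, as above, Mrps22 did not overlap. Of the genes with the highest FPKM, Mrpl12 had a log2 fold change of 0.20 ± 0.12 (SE) and Mrps21 one of 0.17 ± 0.14 (SE), and neither passed the test.

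In CFZ_EA against CFZ, most genes were slightly lower in CFZ_EA hearts, and again none passed the test. The log2 fold change was below 0 for 67 of 78 genes, compared with 51.9% of tested genes, and above 0 for 11, compared with 48.1%. Below 0 were 42 of 49 large-subunit genes and 25 of 29 small-subunit genes. The median log2 fold change was -0.09 for the large subunit and -0.11 for the small subunit, against -0.0084 for all tested genes. By edgeR's quasi-likelihood test 0 of 78 had an adjusted p under 0.05 (0.0194% of tested genes), and by DESeq2 0 of 78 (0.532%). At an unadjusted p under 0.05, Mrpl11 and Mrpl17 (2 of 78) were lower (1.07% of tested genes) and 0 were higher (2.01%). Both CFZ_EA libraries lay below both CFZ libraries for 28 genes (16.7% of tested genes) and above them for 2, Mrpl1 and Mrpl32 (16.7%). On the FPKM scale the counts were 41 below (17.7% of tested genes) and 1 above, Mrpl1 (15.1%). This comparison shares the CFZ libraries with CFZ against Control, so a high CFZ library lowers the one and raises the other.

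Mrpl11, the counterpart of bacterial L11 at the base of the stalk, had 12.04 and 9.99 FPKM in CFZ_EA hearts and 15.2 and 17.5 FPKM in CFZ hearts. The groups did not overlap, and the log2 fold change was -0.56 ± 0.18 (SE; edgeR adjusted p = 0.9997), the most negative of the 78, or 0.677 of the CFZ level. Mrpl17 had 4.31 and 4.50 FPKM in CFZ_EA hearts and 5.76 and 5.26 FPKM in CFZ hearts, a log2 fold change of -0.31 ± 0.11 (SE; edgeR adjusted p = 0.9997). Its CFZ_EA libraries were the lowest of the 6. Mrpl53 had 19.7 and 20.0 FPKM in CFZ_EA hearts and 19.8 and 26.1 FPKM in CFZ hearts, a log2 fold change of -0.21 ± 0.20 (SE). Only CFZ replicate 2 stood above the others, and without it the value was 0.07.

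Among small-subunit genes, Mrps18c had 13.7 and 11.7 FPKM in CFZ_EA hearts and 16.5 and 16.2 FPKM in CFZ hearts, a log2 fold change of -0.35 ± 0.16 (SE; edgeR adjusted p = 0.9997). Mrps28 had 53.0 and 49.7 FPKM in CFZ_EA hearts and 59.6 and 62.9 FPKM in CFZ hearts, a log2 fold change of -0.25 ± 0.12 (SE). Neither gene overlapped between these groups. Mrps9 had 11.1 and 10.7 FPKM in CFZ_EA hearts against the 11.8 and 13.4 FPKM in CFZ hearts, a log2 fold change of -0.21 ± 0.14 (SE). Mrps17, the counterpart of bacterial S17, had 5.26 and 4.09 FPKM in CFZ_EA hearts and 4.83 and 6.47 FPKM in CFZ hearts, a log2 fold change of -0.27 ± 0.22 (SE). Its groups overlapped, and without CFZ replicate 2 the value was 0.01. In the other direction, Mrpl32, the counterpart of bacterial L32, whose protein is processed by a protease of the inner membrane before assembly, had 3.34 and 4.40 FPKM in CFZ_EA hearts and 3.36 and 3.11 FPKM in CFZ hearts, a log2 fold change of 0.27 ± 0.19 (SE). Mrpl1 had a log2 fold change of 0.23 ± 0.20 (SE). On the FPKM scale the Mrpl32 groups overlapped, while on scaled counts they did not.

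**Figure D3:**
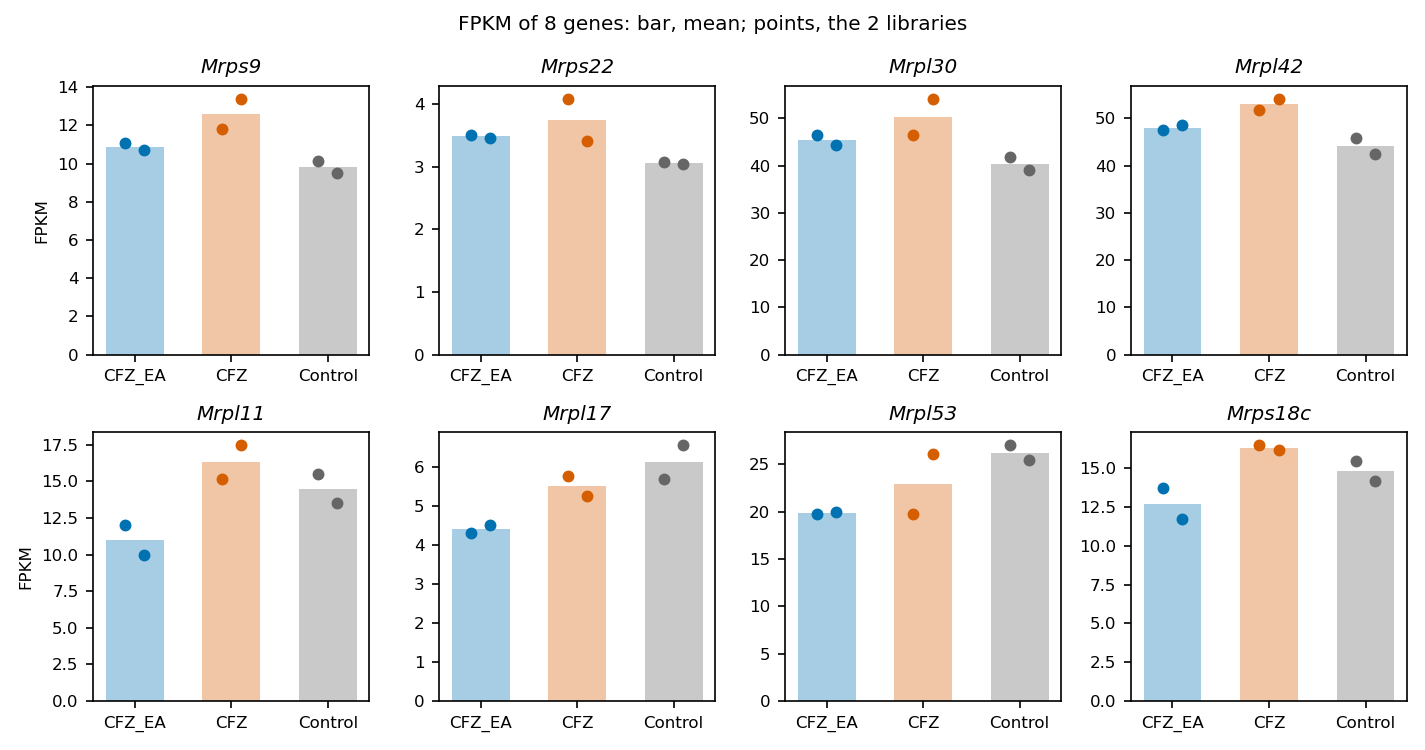
FPKM of 8 genes in CFZ_EA, CFZ and Control hearts, with bars at the mean and points for the 2 libraries of each group. Mrps9, Mrps22, Mrpl30 and Mrpl42 (top) are lowest in Control hearts, and Mrpl11, Mrpl17, Mrpl53 and Mrps18c (bottom) are lowest in CFZ_EA hearts.

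In CFZ_EA against Control, the genes lay closer to the Control level. The log2 fold change was above 0 for 61 of 78 genes, compared with 49.7% of tested genes, and below 0 for 17, compared with 50.3%. Above 0 were 37 of 49 large-subunit genes and 24 of 29 small-subunit genes, with a median of 0.08 for each subunit, against -0.0013 for all tested genes. By edgeR's quasi-likelihood test 0 of 78 had an adjusted p under 0.05 (0% of tested genes), and by DESeq2 0 of 78 (0.494%). At an unadjusted p under 0.05, 1 gene, Mrpl17, was lower (3.66% of tested genes) and 0 were higher (1.47%). The groups did not overlap for 20 genes higher in CFZ_EA hearts (16.6% of tested genes) and for 3 lower, Mrpl11, Mrpl17 and Mrpl53 (17.8%). On the FPKM scale 10 genes were higher without overlap (10.5% of tested genes) and 10 lower (22.1%), Mrpl11, Mrpl17 and Mrpl53 among them, so this split depended on the scale. Without Control replicate 2, 39 of 78 genes had a log2 fold change above 0 (50.6% of tested genes). The count of genes above 0 in this comparison thus depended on that library.

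Mrpl17 had 4.31 and 4.50 FPKM in CFZ_EA hearts and 5.69 and 6.55 FPKM in Control hearts, a log2 fold change of -0.41 ± 0.11 (SE; edgeR adjusted p = 0.848). Mrpl11 had 12.04 and 9.99 FPKM in CFZ_EA hearts and 15.5 and 13.5 FPKM in Control hearts, a log2 fold change of -0.34 ± 0.18 (SE). Mrpl53 had 19.7 and 20.0 FPKM in CFZ_EA hearts and 27.0 and 25.5 FPKM in Control hearts, a log2 fold change of -0.34 ± 0.20 (SE). For all 3 genes the 2 CFZ_EA libraries were the lower ones, and Mrpl53 shares its strand with an overlapping coding gene. On the other side, Mrpl50 had 10.2 and 10.1 FPKM in CFZ_EA hearts and 9.30 and 7.77 FPKM in Control hearts, a log2 fold change of 0.31 ± 0.17 (SE). Mrps22 had 3.52 and 3.47 FPKM in CFZ_EA hearts and 3.08 and 3.05 FPKM in Control hearts, a log2 fold change of 0.25 ± 0.15 (SE). Mrpl30 had a log2 fold change of 0.23 ± 0.15, Mrps9 one of 0.21 ± 0.14 and Mrpl32 one of 0.27 ± 0.19 (SE). This comparison shares its Control libraries with CFZ against Control.

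The paralogs Mrps18a, Mrps18b and Mrps18c, all related to bacterial S18, differed in their values. Mrps18a had 19.3 and 15.8 FPKM in CFZ_EA hearts, 17.8 and 22.3 FPKM in CFZ hearts and 16.4 and 17.9 FPKM in Control hearts. Mrps18b had 21.4 and 18.7 FPKM in CFZ_EA hearts, 15.5 and 21.2 FPKM in CFZ hearts and 17.1 and 19.4 FPKM in Control hearts. Mrps18c had 15.5 and 14.2 FPKM in Control hearts, between the CFZ_EA and the CFZ values given above. The log2 fold change of CFZ against Control was 0.29 ± 0.17 for Mrps18a and 0.19 ± 0.16 for Mrps18c (SE), and that of CFZ_EA against Control was -0.16 ± 0.16 for Mrps18c (SE). Levels of Mrps18a and Mrps18b overlapped between all groups on the FPKM scale. On scaled counts, Mrps18a was higher without overlap in CFZ than in Control hearts (18.4% of tested genes). Mrps18b was so in CFZ_EA against Control hearts (16.6%), and the other comparisons of both genes overlapped.

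The spread between libraries of a group was of the size of these differences. The median absolute log2 ratio of replicate 2 to replicate 1 over the 78 genes was 0.0760 in CFZ_EA, 0.161 in CFZ and 0.187 in Control, against 0.151, 0.179 and 0.228 for all tested genes in the same groups. CFZ replicate 2 was the highest of the 6 libraries for 53 of the 78 genes, compared with 18.7% of tested genes. Control replicate 2 was the lowest for 50 of the 78, compared with 25.7% of tested genes. Within CFZ, 58 of 78 genes were higher in replicate 2 than in replicate 1 (49.9% of tested genes). Within Control 14 of 78 were (51.4%), and within CFZ_EA 38 of 78 were (50.1%). Relative to each gene's own mean over the 6 libraries, the median log2 deviation was 0.01 and -0.0020 in the CFZ_EA libraries, 0.04 and 0.16 in the CFZ libraries and -0.0012 and -0.16 in the Control libraries.

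**Figure D4:**
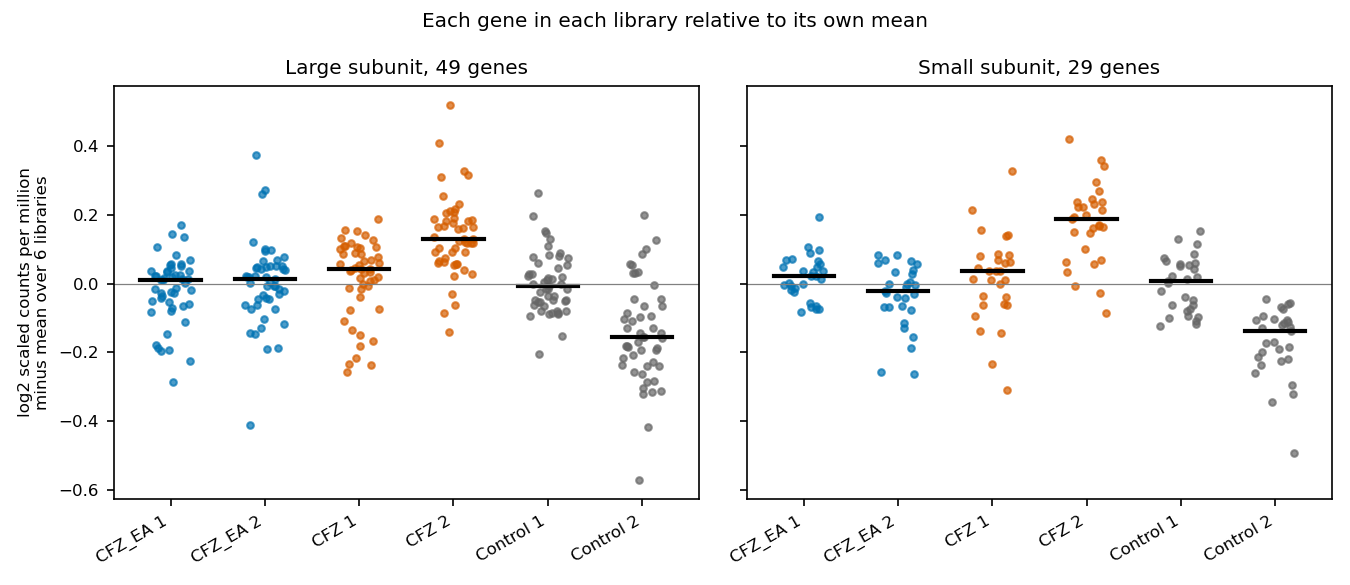
Log2 scaled counts of each gene (vertical axis) minus its own mean over the 6 libraries, for the large subunit (49 genes, left) and the small subunit (29 genes, right), with black bars at the median of each library. CFZ replicate 2 (medians 0.13 and 0.19) is the highest and Control replicate 2 (-0.16 and -0.14) the lowest library for both subunits.

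Leaving out either library reduced the count of genes in the prevailing direction. In CFZ against Control, 61 of 78 genes were above 0 without CFZ replicate 2 (48.6% of tested genes). Without Control replicate 2, 62 of 78 were (51.1%). With those libraries left out, the median log2 fold change was 0.12 and 0.10. Without CFZ replicate 2, 51 of 78 genes were below 0 in CFZ_EA against CFZ, with a median of -0.02. Of all tested genes, 50.5% were then above 0. With counts scaled by library totals alone, the median of all tested genes moved to -0.0663 in CFZ against Control and -0.0728 in CFZ_EA against Control. In these comparisons 63 and 44 of the 78 genes were then above 0, compared with 38.6% and 36.0% of tested genes.

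The other genes of mitochondrial translation were taken from lists of known members. Of 5 mitochondrial ribosomal proteins with other symbols, Dap3, Ptcd3, Chchd1, Aurkaip1 and Gadd45gip1, all 5 had a log2 fold change above 0 in CFZ against Control (median 0.17) and 4 of 5 one below 0 in CFZ_EA against CFZ (median -0.05). Over all tested genes, 49.5% were above 0 in CFZ against Control (median -0.0034), 51.9% below 0 in CFZ_EA against CFZ (median -0.0084) and 49.7% above 0 in CFZ_EA against Control (median -0.0013), for these lists and the groups that follow. Dap3, a GTP-binding protein of the small subunit, had 11.3 and 11.7 FPKM in CFZ_EA hearts, 12.4 and 12.1 FPKM in CFZ hearts and 11.8 and 10.8 FPKM in Control hearts. Of 26 tested factors of ribosome assembly and rRNA modification, 21 were above 0 in CFZ against Control (median 0.16), 19 were below 0 in CFZ_EA against CFZ (median -0.07) and 20 were above 0 in CFZ_EA against Control (median 0.11). Of 16 tested mitochondrial tRNA synthetases, 12 were above 0 in CFZ against Control (median 0.16) and 11 were below 0 in CFZ_EA against CFZ (median -0.07). Of 15 tested translation and mRNA-handling factors, 12 were above 0 in CFZ against Control (median 0.16) and 12 in CFZ_EA against Control (median 0.17). In CFZ_EA against CFZ, 10 of these 15 were above 0 (median 0.03), compared with 48.1% of tested genes. By edgeR's quasi-likelihood test no gene of these lists was called in any comparison. At an unadjusted p under 0.05, 2 assembly factors and 2 translation factors were higher in CFZ against Control (1.82% of tested genes), and 1 of each list was higher in CFZ_EA against Control (1.47%).

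Nsun4, which methylates the RNA of the small subunit and acts with Mterf4 in joining the subunits, stood out by size. It had 6.76 and 5.69 FPKM in CFZ_EA hearts, 6.98 and 6.56 FPKM in CFZ hearts and 2.85 and 2.19 FPKM in Control hearts. All 4 libraries of carfilzomib-treated hearts lay above both Control libraries. The log2 fold change was 1.47 ± 0.19 in CFZ against Control (SE; edgeR adjusted p = 0.4996) and 1.36 ± 0.19 in CFZ_EA against Control (SE; edgeR adjusted p = 0.467), and DESeq2 called it in both. Slirp, which stabilises mitochondrial mRNAs as partner of Lrpprc, had 5.48 and 5.55 FPKM in CFZ_EA hearts, 6.02 and 4.72 FPKM in CFZ hearts and 3.67 and 3.61 FPKM in Control hearts. Its log2 fold change was 0.61 ± 0.16 in CFZ against Control and 0.66 ± 0.16 in CFZ_EA against Control (SE), with no call by either tool. Tufm, the mitochondrial elongation factor Tu, had 118 and 116 FPKM in CFZ_EA hearts, 146 and 131 FPKM in CFZ hearts and 118 and 110 FPKM in Control hearts. Both CFZ libraries were above the other 4, with log2 fold changes of 0.33 ± 0.12 in CFZ against Control and -0.24 ± 0.12 in CFZ_EA against CFZ (SE; edgeR adjusted p = 0.618 and 0.9997).

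Other mitochondrial and ribosomal gene groups are given beside these. Of 36 nuclear-encoded complex I subunits, 35 were above 0 in CFZ against Control (median 0.22) and 34 below 0 in CFZ_EA against CFZ (median -0.14). Of 76 cytosolic ribosomal proteins, 28 were above 0 in CFZ against Control (median -0.03) and 70 below 0 in CFZ_EA against CFZ (median -0.09). In CFZ_EA against Control, 33 of the complex I subunits (median 0.08) and 12 of the cytosolic ribosomal proteins (median -0.09) were above 0. The 13 mitochondrially encoded mRNAs, which are the templates of the mitochondrial ribosome, had medians of 0.34 in CFZ_EA against CFZ, -0.06 in CFZ against Control and 0.27 in CFZ_EA against Control. In Control replicate 2 the median log2 deviation from the mean over the 6 libraries was -0.58 for the mitochondrially encoded mRNAs, -0.22 for complex I and 0.20 for cytosolic ribosomal proteins. In CFZ replicate 2 it was 0.07, 0.24 and 0.11 for these groups, against 0.16 for the mitochondrial ribosomal proteins. By edgeR 0 genes of these 3 groups were called in any comparison. At an unadjusted p under 0.05, 1 complex I gene was higher in CFZ against Control (1.82% of tested genes) and 2 were lower in CFZ_EA against CFZ (1.07%). For cytosolic ribosomal proteins, 1 was higher in CFZ against Control. In CFZ_EA against Control, 1 of them was higher (1.47% of tested genes) and 1 lower (3.66%). By DESeq2, 1 cytosolic ribosomal protein gene was called in CFZ against Control (1.34% of tested genes) and 1 in CFZ_EA against Control (0.494%).

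**Figure D5:**
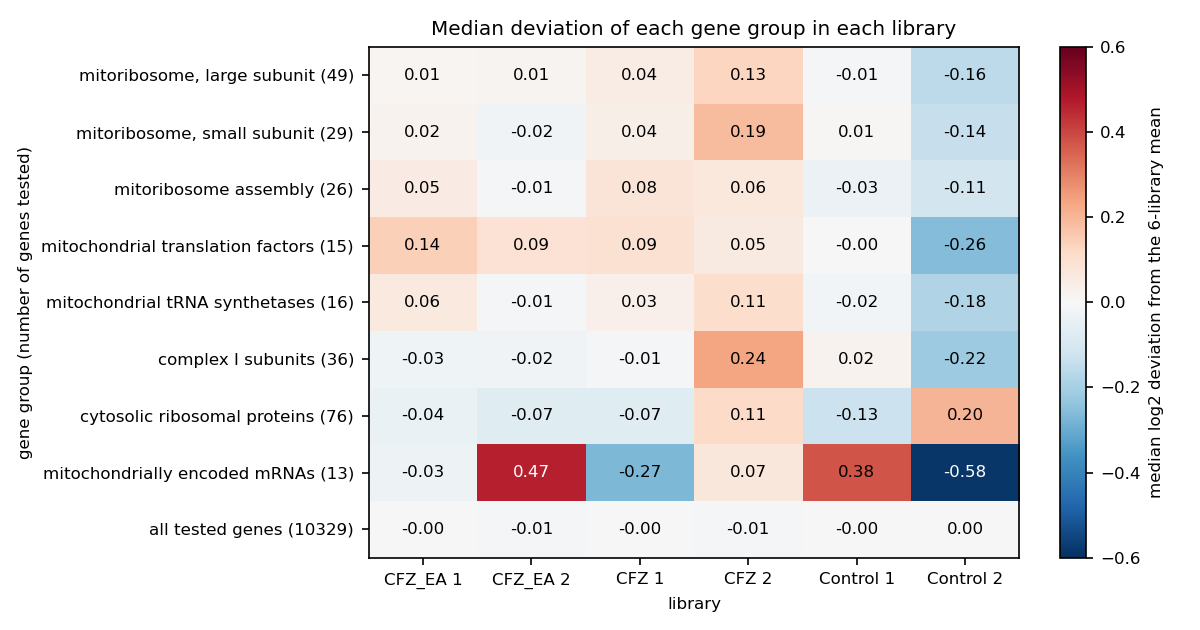
Median log2 deviation of each gene group from its genes' means over the 6 libraries, in columns CFZ_EA 1 and 2, CFZ 1 and 2, Control 1 and 2, with the number of tested genes in brackets. Both mitochondrial ribosome rows are highest in CFZ 2 and lowest in Control 2, the mitochondrially encoded mRNAs are highest in CFZ_EA 2 (0.47), and cytosolic ribosomal proteins are highest in Control 2 (0.20).

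The genes most like the mitochondrial ribosomal proteins were ranked by Pearson correlation of log2(FPKM + 1) with the mean of their standardised values over the 6 libraries, a description with no test. They were Gm15526, a processed pseudogene (r = 0.985), Ubap1 (0.983), Dnajc19 (0.978), Grpel1 (0.976), Atp5j2 (0.975) and Ablim3 (0.974). Dnajc19 and Grpel1 encode parts of the motor that pulls proteins into the mitochondrial matrix, and Atp5j2 encodes a subunit of ATP synthase. Grpel1 had 30.4 and 28.1 FPKM in CFZ_EA hearts, 33.1 and 35.7 FPKM in CFZ hearts and 30.4 and 29.2 FPKM in Control hearts. Atp5j2 had 194 and 189 FPKM in CFZ_EA hearts, 244 and 274 FPKM in CFZ hearts and 202 and 187 FPKM in Control hearts. For both genes the CFZ libraries were above the other 4. The mitochondrial ribosomal protein genes themselves had a median r of 0.664 with that mean, and 49 of 78 were above 0.5. Over these 6 libraries, which differ in depth and in cell markers, 19 tested genes outside the 78 exceeded 0.95, the 6 named ones included.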

How the data were processed

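Values of 6 RNA-seq libraries of mouse heart were read from the gene table, which gives FPKM values and estimated counts per gene and library. Poly(A) RNA (RIN above 7) was selected with 2 rounds of oligo(dT) and sequenced in 150-base pairs with a kit that marks the strand, per the labels' protocols. Cutadapt 1.9, HISAT2 2.0.4 and StringTie 1.3.4d are named in the submitters' processing notes with build GRCm38. The FPKM values were made by the authors and are deposited per gene. The estimated counts deposited by the authors were rounded to whole numbers here. Of the low counts, 42.2% to 43.3% were multiples of 4 in each library, so the counts may not be single reads, and a fit on counts divided by 4 was added after the data were seen.

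The 10329 genes whose FPKM averaged 1 or more (all 78 mitochondrial ribosomal protein genes among them) were fitted in edgeR 4.0.16 (R 4.3.3) with TMM factors, a model of group only over all 6 libraries and the quasi-likelihood test, with Benjamini-Hochberg adjustment over all tested genes and a threshold of 0.05. The scripts were tested on simulated data. DESeq2 1.42.0 and limma 3.58.1 (on log2(FPKM + 1) and log2(FPKM + 0.1)), other scalings, filters of no minimum and of mean FPKM 5, a replicate block and leaving out each library were the alternatives. Subunits follow the symbols. Log2 fold changes are given with their standard error (SE). No p is given for a list: counts and medians stand beside the same over all tested genes. "Do not overlap" refers to scaled counts unless FPKM is named, a scale added after the data were seen.

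The genes and lists were chosen with earlier results of these data known, and the split by bacterial counterpart was made after the values were seen. Genes are named where they had the 5 highest or 5 lowest fold changes of a subunit in a comparison, the 4 highest or 4 lowest levels, are paralogs, are placed elsewhere in later structures, or are disease genes or regulators. From the other lists, genes with the smallest p are named. Not every gene that the rule names is described. Sequences and coordinates are from RefSeq, and overlaps from GENCODE M21. Coordinates of 69 of the 78 genes were the same in the table and in GENCODE M21.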

Additional observations from a re-analysis of the deposited data

How the results depend on the processing

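No mitochondrial ribosomal protein gene was called in any comparison under any alternative (0 in each), including DESeq2, limma, the other scalings, the filters, the replicate block and each left-out library. Of the medians, ratios and counts of calls, 169 values were unchanged or moved by less than the spread between libraries, and 14 moved by more. Direction was not part of this rule, and call counts that stayed at 0 are among the 169. With 2 libraries a group, leaving 1 out shifts a mean by less than that spread almost by construction. The 169 is therefore no measure of stability. Leaving out 1 library, or Control replicate 2 together with CFZ_EA replicate 2, gave medians for the large subunit of 0.10 to 0.26 in CFZ against Control, -0.141 to -0.0218 in CFZ_EA against CFZ and 0.0056 to 0.17 in CFZ_EA against Control. For the small subunit they were 0.10 to 0.26, -0.17 to -0.0097 and -0.0077 to 0.17. The sign of the last turned without Control replicate 2, and the medians of CFZ_EA against CFZ were nearest to 0 without CFZ replicate 2. The cause was not tested. With Mrps30 and Mrps18a counted as large and Mrps36 left out, the ratio of summed FPKM was 2.155 in CFZ_EA, 2.135 in CFZ and 2.156 in Control. With medians in place of sums it was 1.405 in CFZ_EA, 1.428 in CFZ and 1.474 in Control, as the construction differs.

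Of the log2 fold changes printed for single genes, 8 values turned sign. Over all 78 genes more did: in CFZ against Control 61 were above 0 without CFZ replicate 2, against 72 with all 6 libraries, and in CFZ_EA against CFZ 27 were above 0 without it, against 11. Over the left-out libraries in CFZ against Control, Mrpl14 ranged from -0.0551 (without CFZ replicate 2) to 0.781, Mrps31 from -0.0207 (without Control replicate 2, alone or with CFZ_EA replicate 2) to 0.647, and, reaching their highest values without CFZ replicate 1, Mrpl53 from -0.406 to 0.0939, Mrpl43 from -0.280 to 0.0534 and Mrpl57 from -0.212 to 0.0289. In CFZ_EA against CFZ, Mrps17 ranged from -0.510 to 0.0138 and Mrpl53 from -0.436 to 0.0683, both highest without CFZ replicate 2. Nsun4 had an adjusted p under 0.05 with DESeq2 and without Control replicate 1, in both comparisons with Control.

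No shared deviation by replicate number was seen: same-numbered libraries of 2 groups deviated together with r of 0.0752, -0.0547 and -0.0658 over genes. Whether samples of the same number were handled together cannot be told from this. With the replicate block the median over all 78 genes was 0.18 in CFZ against Control, -0.10 in CFZ_EA against CFZ and 0.08 in CFZ_EA against Control, and 0 were called. Summing rows of a symbol, or requiring a mean FPKM of 1 in the ratio, changes nothing here, since no symbol has several rows and all 78 genes pass. Over all tested genes, the CFZ against Control count of calls was 3 with all 6 libraries, 138 with DESeq2, and 24 higher and 308 lower without Control replicate 1. The filter at a mean FPKM of 5 left 73 of the 78 genes. Every gene here had at least 604 counts in each library, so counting depth was not near its limit.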
